A study of Sus scrofa with 6 samples.

Results

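The transforming growth factor beta (TGF-beta) ligands TGFB1 and TGFB3, the matrix protein TGFBI and the Wnt antagonist SFRP4 were followed in 2 skeletal muscles of the pig. These 4 genes, with 5 probe sets, were taken from the authors' table of probe sets that differed between the muscles, in which 288 genes have a name. TGFB1 and TGFB3 carry a gene symbol there, whereas TGFBI and SFRP4 are named by a title that gives strong similarity to the mouse protein. All had higher means in soleus, by 1.85-fold to 3.33-fold, and SFRP4 differed most.

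The samples were 3 arrays of soleus and 3 of longissimus dorsi (LD) from 3 female Meishan littermates aged 150 days. Soleus, called SE in the sampling protocol and taken from its deep part, is the oxidative muscle and the LD, taken at the last rib, the fast-twitch glycolytic one. Whole muscle was extracted, so fewer cells of a type and less RNA per cell cannot be told apart. Biological replicates 1 to 3 are numbered in each muscle, and the labels do not say that a number marks a pig.

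TGF-beta ligands are secreted in a latent complex that is stored in the matrix. Once released, they bind a pair of serine/threonine kinase receptors, which phosphorylate SMAD proteins that enter the nucleus and change transcription. In skeletal muscle the pathway is known for restraining the differentiation of myoblasts and for driving the deposition of collagen by connective tissue cells. TGFBI is a secreted adhesion protein of the matrix that was found as a transcript induced by TGF-beta. SFRP4 is a secreted protein with a domain like that of the Frizzled receptors, with which it binds Wnt ligands outside the cell.

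Every value below is the log2 expression of a probe set on 1 array after its median over the 6 arrays was taken away. Levels of different genes therefore cannot be compared, and a difference of 1 between muscles is a change by a factor of 2. When the muscles do not overlap, this centring places 0 midway between the lowest soleus and the highest LD array. Soleus replicate 3 stood apart from the other arrays, with an SD over all probe sets of 0.50 against 0.24 to 0.31 on the rest. The centred values hold no level, so whether muscle genes were expressed at all could not be checked. Of 12 genes that define skeletal muscle, 2 were named in the table, with slow-type MYBPC1 higher in soleus (by 1.14 and 1.19 on its probe sets) and the fast myosin MYH4 lower (by -0.59).

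These probe sets were chosen by the muscle difference itself. The authors' deposited table selected them on an unadjusted p-value under 0.05 and at least a 1.5-fold difference between the same 6 arrays. The muscle differences are therefore given as a description, without a test. In the authors' deposited table TGFB1 had p = 0.00350 and a 1.85-fold difference, and TGFB3 had p = 0.0277 and a 1.99-fold difference. The 2 probe sets of TGFBI had p = 0.00434 at 2.92-fold and p = 0.00503 at 1.97-fold, in the authors' deposited table, and SFRP4 had p = 0.00338 at 3.33-fold. TGFB3 was the nearest of them to the limit on p and TGFB1 the nearest to the limit on fold. In a limma fit over 23935 probe sets, 0 of the 5 passed an adjusted p under 0.05, which 0.00836% of all probe sets did. At an unadjusted p under 0.05 and 1.5-fold, higher in soleus, all 5 passed, against 2.89% of all probe sets (5.09% passed in either direction). In all 5 the 3 soleus arrays lay above the 3 LD arrays, as they did in 6.08% of all probe sets (14.2% were without overlap in either direction) and in all 323 probe sets that the table lists as higher in soleus. These shares are set by how the probe sets were chosen.

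TGFB1, the best studied of the TGF-beta ligands, had the smallest difference over all 6 arrays, but not without each of them: without LD replicate 2 it was 0.93, against 0.80 for TGFB3. Its probe set, Ssc.76.3.S1_a_at, had 0.29, 0.57 and 0.62 in soleus replicates 1, 2 and 3, against -0.29, -0.30 and -0.59 in those of LD. The means were 0.49 ± 0.18 in soleus and -0.39 ± 0.17 in LD (SD, n = 3 arrays each), a log2 difference of 0.89 (SE 0.17). The muscles did not overlap, and the gap of 0.57 between the lowest soleus and the highest LD array was wider than the spread within soleus (0.34) or LD (0.30). Among all probe sets, 297 (1.24%) had a difference at least as large in favour of soleus.

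A further probe set, Ssc.76.1.S1_a_at, carries the same cluster number in its identifier as that of TGFB1 but has no gene name here. The number in the identifier equals the UniGene cluster given for 335 of the 546 listed probe sets that have one, TGFB1 among them, so a shared number is no proof of a shared gene. It had 0.03, 0.29 and 0.09 in soleus replicates 1, 2 and 3, against -0.03, -0.19 and -0.15 in those of LD. The soleus values again lay above those of LD, but the gap was 0.06 and the difference 0.26 (SE 0.15), which is 1.20-fold. It lay outside the limits of the authors' table by its fold, which is under 1.5. A difference at least as large was found for 3880 probe sets (16.2%).

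TGFB3, a ligand that signals through the same receptors as TGFB1, had the narrowest gap between the muscles of the 4 genes. Its probe set, Ssc.27593.1.S1_at, had 0.27, 0.15 and 0.59 in soleus replicates 1, 2 and 3, against -0.77, -1.04 and -0.15 in those of LD. The means were 0.34 ± 0.22 in soleus and -0.65 ± 0.46 in LD (SD, n = 3 arrays each), with a log2 difference of 0.99 (SE 0.25). The spread within LD (0.89) was larger than the gap between the muscles (0.30), because LD replicate 3 lay far above the other LD arrays and close to soleus replicate 2. Without LD replicate 3 the difference was 1.24, and without LD replicate 2 it was 0.80.

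**Figure D1:**
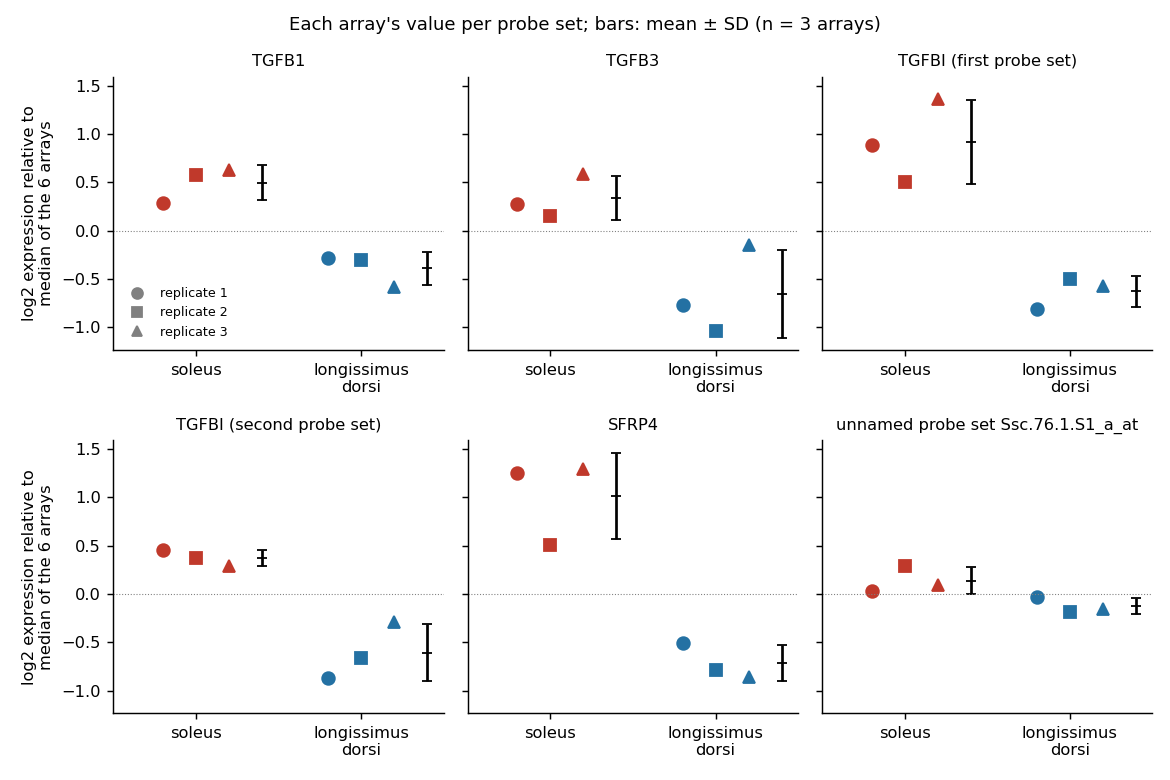
Each point is 1 array, with soleus left and longissimus dorsi (LD) right in each panel, on the log2 scale relative to the median of the 6 arrays. Bars give the mean ± SD of 3 arrays. Soleus lies above LD in all 6 panels, with a gap of 1.01 for SFRP4 and of 0.06 for the probe set without a name.

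TGFBI was measured by 2 listed probe sets that gave differences of unequal size. The first, Ssc.16671.1.S1_at, had 0.89, 0.50 and 1.36 in soleus replicates 1, 2 and 3, against -0.81, -0.50 and -0.57 in those of LD. The second, Ssc.16671.2.S1_at, had 0.46, 0.38 and 0.29 in soleus, against -0.87, -0.66 and -0.29 in LD. Soleus replicate 3 was the highest soleus array on the first probe set and the lowest on the second, and the LD arrays were also ordered differently.

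The first TGFBI probe set averaged 0.92 ± 0.43 in soleus and -0.63 ± 0.16 in LD, a log2 difference of 1.54 (SE 0.23). The second averaged 0.37 ± 0.08 in soleus and -0.61 ± 0.29 in LD, a difference of 0.98 (SE 0.18, SD over n = 3 arrays in each case). As each probe set is centred on its own median, the values do not show in which muscle they parted. Without soleus replicate 3 the differences were 1.32 and 1.02, nearer to each other than with it. Differences at least as large were reached by 36 probe sets (0.150%) for the first and 205 (0.856%) for the second. Both probe sets were listed because they differed, so that they point the same way is not independent evidence.

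SFRP4 had the largest difference of the 4 genes. Its probe set, Ssc.19566.1.S1_at, had 1.25, 0.50 and 1.29 in soleus replicates 1, 2 and 3, against -0.50, -0.79 and -0.86 in those of LD. The means were 1.02 ± 0.44 in soleus and -0.72 ± 0.19 in LD (SD, n = 3 arrays each), with a log2 difference of 1.73 (SE 0.24). Soleus replicate 2 was lower than the other soleus arrays, yet the gap of 1.01 to the highest LD array exceeded the spread within soleus (0.79) and LD (0.35). In the authors' deposited table SFRP4 ranks 10 by fold among the 323 probe sets higher in soleus, and only 17 of all probe sets (0.0710%) had a difference at least as large. Without soleus replicate 2 its difference was 1.99, and without soleus replicate 3 it was 1.60.

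**Figure D2:**
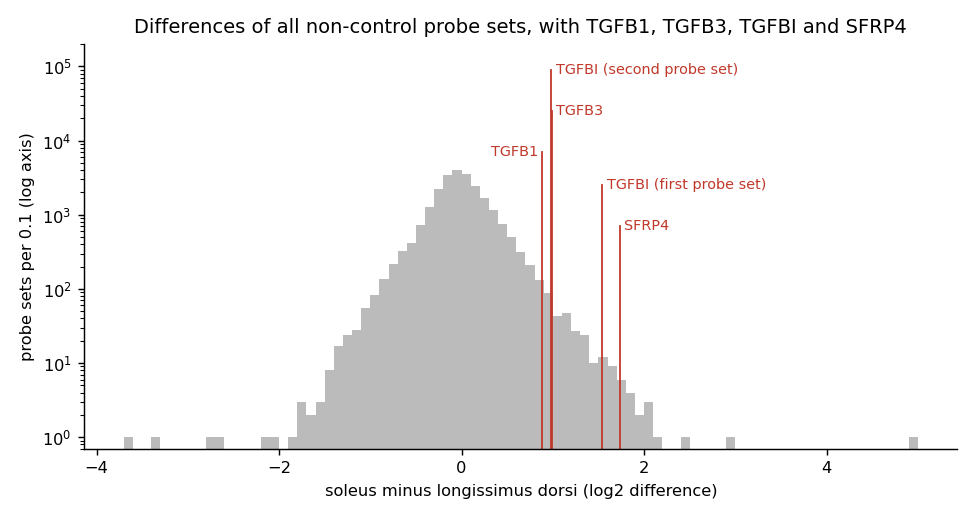
Bars count all 23935 non-control probe sets by their log2 difference, soleus minus longissimus dorsi, in steps of 0.1 on a log axis. Lines mark the 5 probe sets, from TGFB1 at 0.89 to SFRP4 at 1.73, and 191 probe sets lie at 1 or more.

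**Figure D3:**
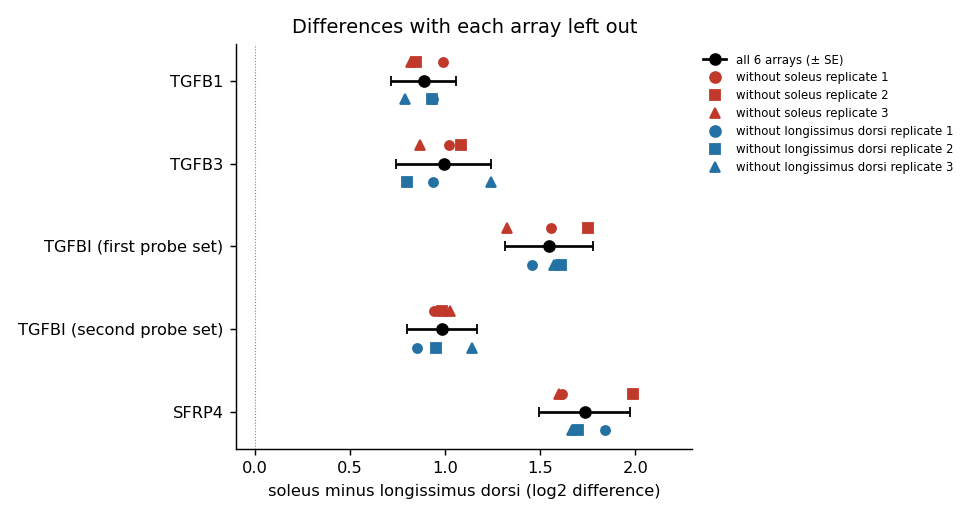
Black points give the log2 difference, soleus minus longissimus dorsi (LD), over all 6 arrays with its SE, and coloured points the difference with 1 array left out. TGFB1 runs from 0.79 to 0.99 and SFRP4 from 1.60 to 1.99.

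Within soleus, TGFB3, SFRP4 and the mean of the TGFBI probe sets stood in 1 order (replicate 3 highest, replicate 2 lowest), and within LD, TGFB1 and SFRP4 did (replicate 1 highest, replicate 3 lowest). Soleus replicate 3 was the highest soleus array for TGFB1, TGFB3, the first TGFBI probe set and SFRP4, and the lowest for the second TGFBI probe set. Soleus replicate 2 was the lowest for TGFB3, the first TGFBI probe set and SFRP4, but not for TGFB1, where soleus replicate 1 was. In LD, replicate 3 was the highest array for TGFB3 and the second TGFBI probe set and the lowest for TGFB1 and SFRP4. Over the 6 arrays the 10 pairs of probe sets had Pearson correlations of 0.747 to 0.962, which the choice of probe sets by the muscle difference fixes to a large part. Once each muscle's mean was taken away, the correlations ran from -0.808 to 0.617 over the same 6 arrays.

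The pair most alike in these deviations was SFRP4 with the first TGFBI probe set (0.617, and 0.427 without soleus replicate 3). The least alike was TGFB1 with the second TGFBI probe set (-0.808, and -0.807 without soleus replicate 3). Both ligands had a correlation of -0.456 with each other, and both TGFBI probe sets one of 0.059 (0.486 without soleus replicate 3). These values rest on few arrays: without soleus replicate 3 TGFB1 and TGFB3 had -0.798, and TGFB3 with the second TGFBI probe set, at 0.599 over all arrays, became the most alike at 0.797. TGFB1 and the unnamed probe set with its cluster number correlated at 0.480 in their deviations. All points come from 6 arrays of 3 pigs and share the arrays' labelling and scaling, so these correlations are descriptions.

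For each gene the named genes of the authors' table whose values over the 6 arrays were most like its own were looked up by Pearson correlation. The mean of both probe sets stood for TGFBI. A named gene with several probe sets was taken by its most alike one, and its other probe sets can differ. The best of 288 named genes will be high for any gene, and all were listed because they differed between the same muscles. SFRP4 was most like the chains of type I collagen, COL1A2 (0.995) and COL1A1 (0.994), and then a probe set titled transmembrane anchor protein 1 (0.987). COL1A1 had 1.31, 0.42 and 1.43 in soleus replicates 1, 2 and 3, against -0.42, -0.72 and -0.61 in those of LD. Like SFRP4, it was lowest in replicate 2 among the soleus arrays and highest in replicate 1 among those of LD. The other listed COL1A1 probe set was lowest in soleus replicate 3, with 0.44, 0.40 and 0.21 in soleus replicates 1, 2 and 3. The other listed COL1A2 probe set had 1.25, 0.39 and 2.08 there, lowest in replicate 2 as SFRP4 was. Correlations in the deviations from the muscle means again refer to the most alike probe sets. They were 0.980 for COL1A2 and 0.974 for COL1A1 (0.978 and 0.969 without soleus replicate 3). The lysosomal protease cathepsin Z stood between them (0.979).

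TGFBI was most like vimentin, the intermediate filament protein of mesenchymal cells (0.995), and then legumain, a lysosomal endopeptidase (0.991), and extracellular matrix protein 1 (0.985). Vimentin had 0.41, 0.24 and 0.55 in soleus replicates 1, 2 and 3, against -0.49, -0.25 and -0.24 in those of LD, and a difference of 0.73. It was thus ordered over the arrays as the mean of the TGFBI probe sets was. In the deviations vimentin was again first (0.970), followed by the endocytic adaptor disabled homolog 2 (0.944) and COL14A1, a fibril-associated collagen (0.943).

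The ligands were most like genes other than collagens. TGFB1 was most like a homeobox probe set with the symbol HOXD10A and the title homeobox protein A10 (0.998), then myosin IXb, an actin motor (0.992), and PTHLH, the parathyroid hormone-like hormone (0.991). The homeobox probe set had 0.34, 0.73 and 0.84 in soleus replicates 1, 2 and 3, against -0.34, -0.37 and -0.66 in those of LD. In both muscles its arrays stood in the same order as those of TGFB1, and it led in the deviations too (0.984, and 0.989 without soleus replicate 3), ahead of thiamine triphosphatase (0.959) and myosin IXb (0.952).

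TGFB3 was most like ITGB3, the integrin beta 3 subunit (0.980), then SEC31-like 1, a coat protein of secretory vesicles (0.958), and LIM and SH3 protein 1, an actin-binding protein (0.957). ITGB3 had 0.17, 0.21 and 0.61 in soleus replicates 1, 2 and 3, against -0.42, -0.86 and -0.17 in those of LD. It was highest in soleus replicate 3 and, within LD, in LD replicate 3, as TGFB3 was. In the deviations the suppressor of variegation 3-9-like protein 2, which was lower in soleus (-0.68), came first (0.975), before SEC31-like 1 (0.934) and ITGB3 (0.922). Over all probe sets, named or not, 23 to 444 were at least as alike in the deviations as the genes given here. None of the likenesses in the deviations is therefore particular to its pair. Over the 6 arrays, where the muscle difference enters, the count ran from 1, vimentin itself for TGFBI, to 45 for LIM and SH3 protein 1 with TGFB3.

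**Figure D4:**
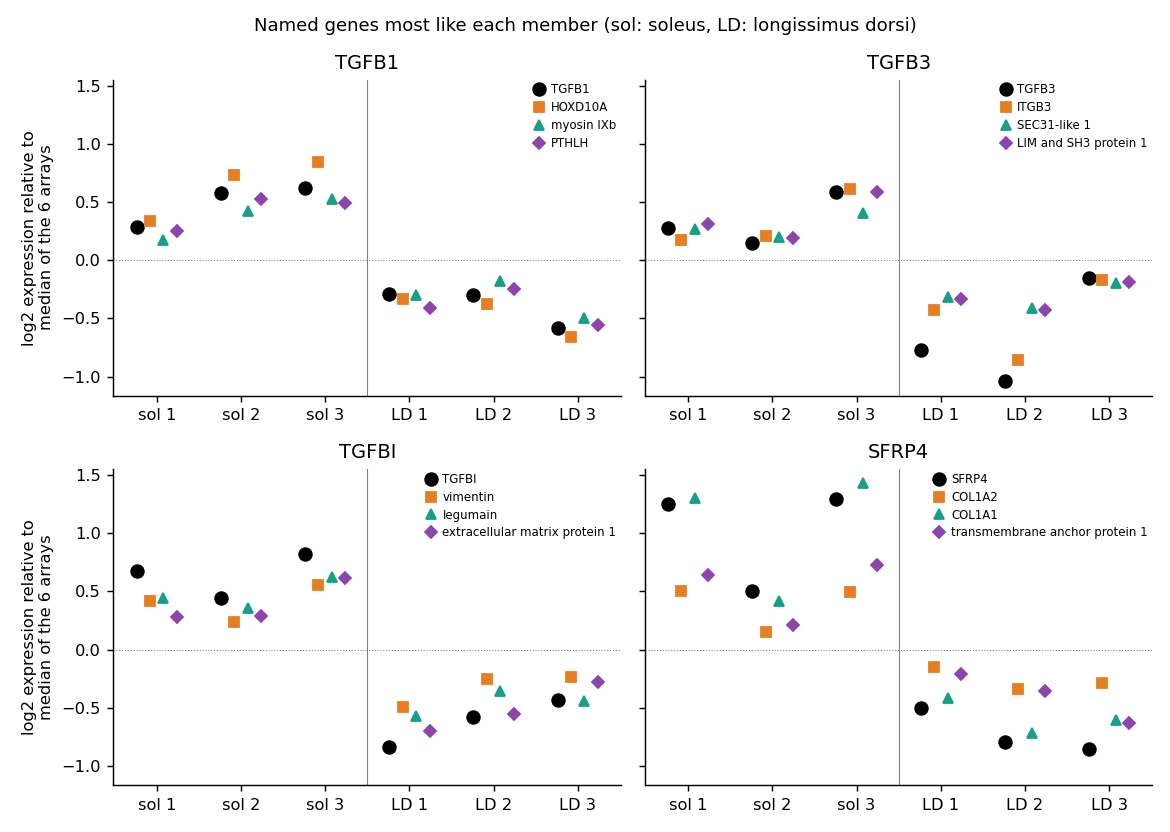
Each panel gives 1 gene (black circles) and the 3 named genes most like it over the 6 arrays, with the 3 soleus arrays left and the 3 longissimus dorsi (LD) arrays right, as log2 expression relative to the median of the 6 arrays. A named gene is shown by its most alike probe set. SFRP4 and this COL1A1 probe set share the low value in soleus replicate 2 (0.50 and 0.42). TGFB3 and ITGB3 share the high value in LD replicate 3 (-0.15 and -0.17).

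Lists of 123 genes of TGF-beta and Wnt signalling were searched by symbol and title, and 15 were named in the authors' table. A gene has a name here only if it was listed. Controls left out, the authors' deposited table lists 549 probe sets (2.29% of all), of which 323 (1.35% of all) were higher in soleus. These are shares of probe sets, whereas the lists count genes, some with several probe sets, so the 2 cannot be set against each other directly. The other list genes were not analysed. Of the ligand list (16 genes), TGFB1 and TGFB3 were the 2 named. No gene was named of 13 receptors, of 14 SMADs and partners or of 22 Wnt ligands, receptors and effectors. The 11 named genes besides the 4 had 20 probe sets, of which 19 had higher means in soleus and 0 passed an adjusted p under 0.05 in limma. Of all 288 named genes, 173 were higher in soleus and 115 lower.

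Of the 17 genes that store or activate latent ligand, MMP14, a membrane-bound matrix protease, was named. It had 0.32, 0.17 and 0.90 in soleus replicates 1, 2 and 3, against -0.53, -0.17 and -0.21 in those of LD, a difference of 0.77 (SE 0.23). Of 12 antagonists, the small proteoglycans biglycan (BGN) and fibromodulin (FMOD), which bind TGF-beta, were named. BGN differed by 0.84 (SE 0.20) and FMOD by 1.64 (SE 0.31).

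The list of TGF-beta response genes had 8 of 19 genes named, TGFBI among them, all with higher medians in soleus. These 8 genes had 18 probe sets. Over the 8 genes, each given by the median of its probe sets, the median difference was 1.24 (1.08 without soleus replicate 3). Counted by probe set instead, the median was 0.85 over the listed probe sets higher in soleus and -0.03 over all. The units differ, so these medians cannot be set against each other directly. Listing required at least a 1.5-fold difference in either direction. It therefore bounds the size of a difference from below but not its sign. PMEPA1, a membrane protein that restrains TGF-beta signalling and is itself induced by it, is titled transmembrane, prostate androgen induced RNA in the table. Its 3 listed probe sets differed by 0.93 (SE 0.14), 0.68 (SE 0.15) and 0.96 (SE 0.18). The first of them was the most even, with 0.45 ± 0.04 in soleus and -0.49 ± 0.08 in LD (SD, n = 3 arrays each).

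Fibronectin (FN1), a matrix glycoprotein, differed by 1.33 (SE 0.25) and tenascin C (TNC) by 1.41 (SE 0.17). COL1A1, COL1A2 and COL5A1 differed by 0.64 to 1.82 over 6 probe sets. Of 5 probe sets of elastin (ELN), 4 differed by 0.91 to 1.51 and 1 by -1.24. In the list of 11 genes headed secreted Wnt inhibitors, DKK3, a member of the dickkopf family, was named besides SFRP4, with a difference of 0.83 (SE 0.18). Whether DKK3 acts on Wnt signalling was not tested.

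**Figure D5:**
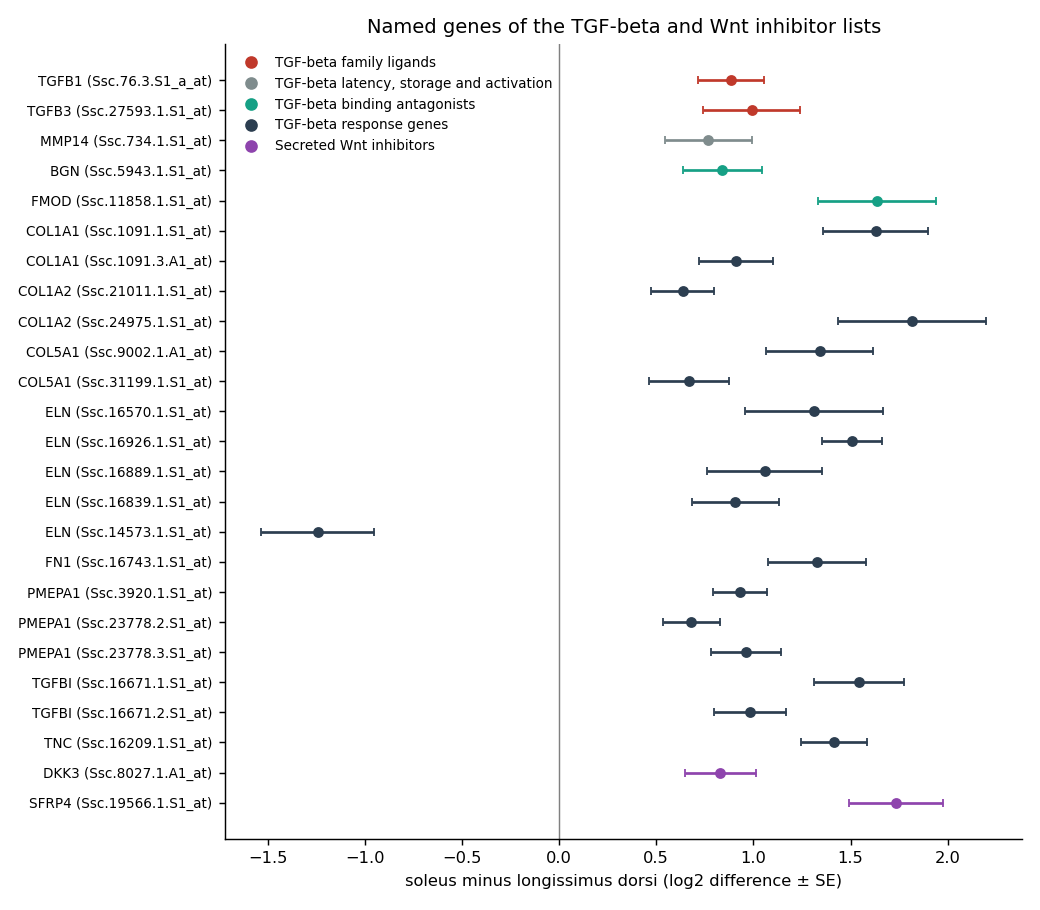
Points give the log2 difference, soleus minus longissimus dorsi, with its SE for each named probe set of the TGF-beta and Wnt inhibitor lists, coloured by role. Of the 25 points, 24 lie above 0 and 1 elastin probe set lies at -1.24.

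The named markers of connective tissue cells had higher means in soleus, as the 4 genes did. A marker is named here only if it was listed for a difference between the same arrays. The other markers were not analysed, so this says nothing of the markers as a whole. Of 10 fibroblast markers, COL1A1, COL1A2, DPT and THY1 were named, and their mean was 1.02, 0.31 and 0.99 in soleus replicates 1, 2 and 3, against -0.33, -0.53 and -0.48 in those of LD. Of 12 tendon markers, 7 were named: CLEC3B, COL12A1, COL14A1, COMP, FMOD, THBS4 and TNC. Their means were 0.70, 0.42 and 0.64 in soleus, against -0.44, -0.51 and -0.59 in LD. COL1A1, COL1A2 and TNC are also in the list of TGF-beta response genes and FMOD in that of antagonists, so these lists share values. For comparison, the mean over the 4 genes was 0.62, 0.42 and 0.83 in soleus, against -0.60, -0.68 and -0.51 in LD. Of 10 leukocyte markers, LAPTM5 was named, with a difference of 0.65. No endothelial or adipocyte marker was named, of 6 each. The part of connective tissue in the differences of the 4 genes was not tested.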

How the data were processed

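Total RNA was labelled with biotin and hybridised to Affymetrix porcine arrays, per the labels' protocols. MAS5 version 2.3.1 is named, with no role, per the submitters' processing notes; probe summarisation and scaling are not given. The deposited values are log2 expression that the authors centred on each probe set's median over the 6 arrays: that median was 0 within 5e-07. The authors' deposited table gives an unadjusted p-value of an unpaired test and a fold, which is the ratio of both muscle means with the larger on top, with cut-offs of 0.05 and 1.5 per the file headers. Its muscle means equal those of the values within 1.07e-07.

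After 188 control probe sets were left out, soleus minus longissimus dorsi (LD) was fitted over 23935 probe sets with limma 3.58.1 in R 4.3.3 (lmFit, eBayes, Benjamini-Hochberg adjustment at 0.05), without a filter or further scaling, and tested on simulated data. Differences and SEs come from this fit. It takes the arrays as independent, although they come from littermates that may each have given both muscles. Correlations and lists were computed in Python 3.11.15. The number of arrays limits the precision.

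The genes, lists and tests were chosen with earlier results of these data known. Named were all probe sets of the 4 genes and every list gene found in the authors' table. Also named were the 3 named genes most like each by Pearson correlation over the arrays and in the deviations from the muscle means. For these, 1 probe set per gene was kept, the most alike. Alternatives were a block for the replicate number, quantile normalization, a variance trend, the unpaired test, medians, 1 probe set per gene and leaving out each array.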

Additional observations from a re-analysis of the deposited data

How the results depend on the processing

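The differences of the 5 probe sets kept their direction in 45 of 45 comparisons over 9 alternatives and moved by less than 1 SD within muscles; as the groups did not overlap by choice, this direction is no sign of stability. Their median of 0.99 ran from 0.94 to 1.24 without an array. A block for the replicate number, 1 of the 9, cannot change a difference here, as every number has an array in each muscle. It changes the SE, which was 0.20 for TGFB1, 0.19 for TGFB3, 0.23 and 0.21 for TGFBI and 0.22 for SFRP4. Without the block these SEs were 0.17, 0.25, 0.23, 0.18 and 0.24. With quantile normalization, 1 of the 5, the first TGFBI probe set, passed the adjusted threshold. The 2 adjusted calls over all probe sets became 6 with quantile normalization, 7 with the replicate block, 10 with a variance trend and 1 to 4 without an array. The 1219 probe sets past unadjusted p and fold became 549 with the unpaired test and 797 to 2501 without an array, and the 3395 without overlap became 4559 to 7438, since fewer arrays overlap less. The other causes were not tested. Deviations of same-numbered arrays correlated at -0.14, 0.11 and 0.25, and for replicates 1 and 2 arrays of another number were more alike. With 3 arrays per muscle, these correlations cannot show whether a number marks a pig. The numbers were not taken as pairs because the labels do not say that they are. The values without soleus replicate 3 of lists and likenesses were added after the data were seen. Centred values hold no signal over background.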
